A study of Mus musculus with 12 samples.

Results

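The genes described are 10 members of the epithelial-mesenchymal transition (EMT) machinery, chosen by symbol in the gene name column of the deposited count tables. They are 10 of 46517 genes in the tables, and each was found in both tables. Cdh1, Epcam and Esrp1 mark the epithelial state, Cdh2 and Vim the mesenchymal state, and Zeb1, Zeb2, Snai1, Snai2 and Twist1 encode transcription factors of the transition. The libraries came from 2 tumour lines of the mouse, the melanoma line B16F10 and the mammary carcinoma line 4T1. Decitabine (DAC), a cytidine analogue that is built into DNA and traps DNA methyltransferases, was given for 48 h at 0.1 µM to B16F10 and at 1 µM to 4T1. The 4 groups are B16F10 with decitabine, B16F10 control, 4T1 with decitabine and 4T1 control, with 3 libraries each and 12 in all. What the control cells received is not stated in the labels. Cells of every group grew in plates in the same serum-containing medium, and dead cells were taken out with microbeads ahead of RNA preparation. Both lines are established tumour lines rather than tissue, and the labels do not say whether replicates were separate cultures. The p-values therefore measure the spread between these libraries, which may be technical. Dose and line, and possibly the sequencing instrument, cannot be told apart between the lines.

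EMT is the loss of cell-to-cell adhesion and polarity by epithelial cells and the gain of a motile, filament-rich mesenchymal state, and tumour cells often hold both states in part. Its core repressors belong to the Zeb, Snail and Twist families, and Zeb and Snail proteins bind short CANNTG sites (E-boxes) and recruit corepressors to epithelial genes such as Cdh1. Melanocytes come from the neural crest and normally keep Zeb2 and Snai2 expressed, with Zeb1 and Twist1 linked to less differentiated melanoma states. Breast carcinoma cells such as 4T1 are of epithelial origin.

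Library totals ranged from 48197936 to 76042600 estimated counts, so that 3 counts in a library were worth 0.0395 to 0.0622 CPM before scaling. Levels below are CPM, counts set relative to the library total, scaled with TMM factors from all 12 libraries, and such limits cover counting error only. Most but not all marker genes went with the labels of the lines. All 9 melanocyte markers were detected in B16F10 control libraries, led by Dct. Krt8 led the mammary markers in 4T1 control libraries, in which Csn2, Krt5, Pgr and Wap were at 0. Of 10 mammary markers tested between the control groups, 6 were lower in B16F10, 1 was higher and 3 did not pass. Foxa1, a luminal factor, led them in B16F10 control at 8.53 CPM, above its level in 4T1 control. Mitochondrial genes took 8.76 ± 1.13% of counts in B16F10 with decitabine and 6.999 ± 0.911% in B16F10 control (SD, n = 3 each). In 4T1 with decitabine the 10 most abundant genes took 23.2 ± 0.759% of counts, against 5.61 ± 0.193% in 4T1 control (SD, n = 3 each). In bulk RNA, fewer cells of a kind and less RNA per cell cannot be told apart.

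The RefSeq promoter table (build GRCm38.p6) held windows of 300 bases, 250 before to 50 after a transcript's start, for Epcam, Vim, Zeb2, Snai1 and Twist1. It had no entry matched for Cdh1, Esrp1, Cdh2, Zeb1 and Snai2. Windows of 4 genes are shown because Epcam and Snai1 rose and Vim and Zeb2 fell in 4T1 cells, and because CG pairs are the bases that DNA methyltransferases act on. Capitals mark CAGGTG on either strand (CACCTG when read on the opposite one), an E-box that Snail and Zeb factors are known to bind. Matches on the 2 strands did not overlap, and each sequence is written 5′ to 3′ on the gene's strand. The windows lie at chr17:87635729-87636028 (plus strand) for Epcam, chr2:167537945-167538244 (plus strand) for Snai1, chr2:13574061-13574360 (plus strand) for Vim and chr2:45117393-45117692 (minus strand) for Zeb2.
Epcam: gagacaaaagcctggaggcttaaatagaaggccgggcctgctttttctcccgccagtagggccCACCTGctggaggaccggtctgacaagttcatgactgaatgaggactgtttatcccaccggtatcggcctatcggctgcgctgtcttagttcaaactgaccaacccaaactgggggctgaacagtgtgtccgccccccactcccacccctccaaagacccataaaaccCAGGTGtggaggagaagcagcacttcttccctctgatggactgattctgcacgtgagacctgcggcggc
Snai1: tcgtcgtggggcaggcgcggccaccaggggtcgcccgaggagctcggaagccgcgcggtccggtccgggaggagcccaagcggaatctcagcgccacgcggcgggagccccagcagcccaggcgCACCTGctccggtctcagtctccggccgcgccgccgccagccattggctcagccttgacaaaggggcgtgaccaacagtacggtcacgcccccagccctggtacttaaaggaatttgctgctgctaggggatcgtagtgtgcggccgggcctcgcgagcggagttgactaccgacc
Vim: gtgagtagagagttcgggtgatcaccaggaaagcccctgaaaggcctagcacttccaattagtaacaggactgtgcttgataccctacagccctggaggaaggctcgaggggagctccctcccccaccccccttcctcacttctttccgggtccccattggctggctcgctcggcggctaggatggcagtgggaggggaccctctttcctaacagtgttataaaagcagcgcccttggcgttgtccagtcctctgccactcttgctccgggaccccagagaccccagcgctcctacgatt
Zeb2: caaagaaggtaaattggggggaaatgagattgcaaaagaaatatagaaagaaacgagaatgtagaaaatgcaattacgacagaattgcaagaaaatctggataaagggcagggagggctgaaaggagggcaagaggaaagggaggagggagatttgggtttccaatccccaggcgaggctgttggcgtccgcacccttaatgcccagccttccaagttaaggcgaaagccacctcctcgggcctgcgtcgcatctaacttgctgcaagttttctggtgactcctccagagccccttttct
The Epcam window held 2 matches, at positions -187 and -19 from the start, and the Snai1 window held 1, at -126. The windows of Vim, Twist1 and Zeb2 (4 windows) held none. Of all 32851 windows 20.2% held at least 1 match and 2.88% held 2 or more. CG pairs numbered 34 in the Snai1 window, 27 in that of Twist1, 11 each in those of Epcam and Vim, and 9 in the Zeb2 window shown, with 8, 8 and 19 in the other Zeb2 windows, against a median of 7 (quartiles 3 and 20) over all windows. A match is a run of letters and not a shown binding site.

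In 4T1 cells decitabine was accompanied by unequal changes on both the epithelial and the mesenchymal side of the EMT programme. Vim fell to 991 ± 79.7 CPM with decitabine, against 2695 ± 58.3 CPM in control, and Zeb2 fell to 15.8 ± 1.34 CPM, against 52.3 ± 2.90 CPM (SD, n = 3 each). Zeb1 rose to 5.10 ± 0.0207 CPM with decitabine, against 0.948 ± 0.320 CPM in control, and Snai1 rose to 17.2 ± 0.808 CPM, against 10.2 ± 0.258 CPM (SD, n = 3 each). Among the epithelial members Epcam rose, Esrp1 fell and Cdh1 did not pass the test. Of 8 members tested in 4T1, 3 rose and 4 fell, where the test called 75.3% of all 15523 genes tested (39.2% higher and 36.1% lower). Against that background the number of calls is no result about these genes in particular. In B16F10 cells, at the lower dose, 1 of 8 members tested rose and 0 fell by edgeR's quasi-likelihood test, which called 41.2% of 14344 genes (21.4% higher and 19.8% lower). At an unadjusted p under 0.05 the B16F10 count was 3 higher and 0 lower, and DESeq2 called 0 in either direction.

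**Figure D1:**
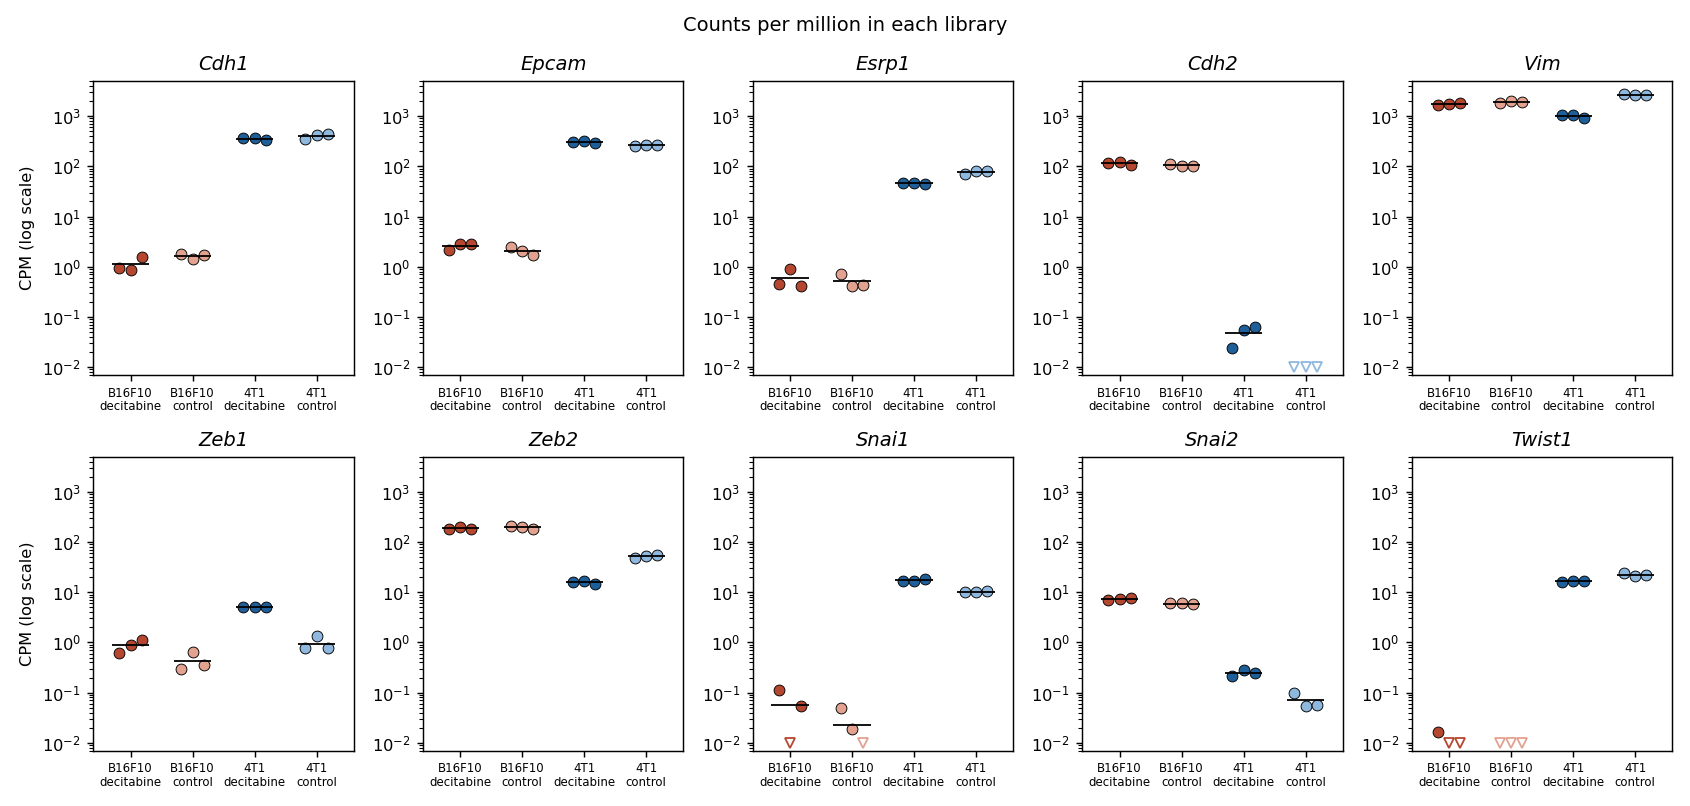
Level (CPM, log scale) of each of the 10 genes in each of the 12 libraries. Points are libraries, horizontal lines are group means, and open triangles at the foot are libraries with 0 counts. Cdh1, Epcam, Esrp1, Snai1 and Twist1 sit higher in 4T1 than in B16F10, where Snai1 and Twist1 are at or near the floor, Cdh2 and Snai2 sit the other way round, and within 4T1 the Zeb1 and Zeb2 points move in opposite directions with decitabine.

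Cdh1 encodes E-cadherin, the calcium-dependent adhesion protein of epithelial junctions, on chromosome 8 (106603351 to 106670246, plus strand, mm10). Its level was 0.931, 0.874 and 1.54 CPM in B16F10 with decitabine and 1.78, 1.39 and 1.74 CPM in B16F10 control. It was 359, 363 and 330.5 CPM in 4T1 with decitabine and 343, 420.4 and 431 CPM in 4T1 control. Both pairs of groups overlapped, through decitabine replicate 3 in B16F10 and control replicate 1 in 4T1, and every 4T1 library lay above every B16F10 library. On the log2 scale the response was -0.55 in B16F10 (SE 0.279, adjusted p = 0.126) and -0.13 in 4T1 (SE 0.0809, adjusted p = 0.172). In each line 1 library decided on which side of the threshold the value lay. Without decitabine replicate 3 the B16F10 value was -0.86 (adjusted p = 0.0359), and without control replicate 1 the 4T1 value was -0.24 (adjusted p = 0.000219). Between the lines the level was 317-fold lower in B16F10 than in 4T1 with decitabine and 242-fold lower in control (adjusted p = 3.59e-13 and 4.05e-13).

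Epcam encodes an epithelial surface adhesion protein and lies on chromosome 17 (87635979 to 87651129, plus strand). Its level was 2.19, 2.83 and 2.85 CPM in B16F10 with decitabine and 2.51, 2.03 and 1.73 CPM in B16F10 control. It was 306, 326 and 292 CPM in 4T1 with decitabine and 254, 269 and 269.6 CPM in 4T1 control. The 4T1 groups did not overlap, the decitabine libraries lying above, while the B16F10 groups did. In 4T1 the log2 fold change was 0.27 (SE 0.0489, adjusted p = 0.00039), but with scaling by library size only it was -0.02 (adjusted p = 0.664), a scaling that moved the median of all genes by -0.299. Relative to the median of all genes Epcam was higher under either scaling. With TMM scaling 37.1% of genes tested in 4T1 rose by as much as Epcam or more. In B16F10 the log2 fold change was 0.33 (SE 0.208, adjusted p = 0.225).

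Esrp1 encodes an RNA-binding protein that sets epithelial splice patterns, on chromosome 4 (11331933 to 11386783, minus strand). Its level was 0.457, 0.908 and 0.404 CPM in B16F10 with decitabine and 0.720, 0.414 and 0.423 CPM in B16F10 control. It was 47.5, 47.1 and 43.7 CPM in 4T1 with decitabine and 71.9, 79.7 and 81.5 CPM in 4T1 control. All 3 decitabine libraries of 4T1 lay below all 3 controls, and the B16F10 groups overlapped. In 4T1 Esrp1 fell 1.63-fold (log2 fold change -0.70, SE 0.057, adjusted p = 8.66e-07), and 11.8% of genes tested fell by as much or more. In B16F10 the change was 0.19 (SE 0.432, adjusted p = 0.771), with few counts. An opposite-strand gene, Gm26663, overlaps Esrp1 exons over 127 bases and had 25 counts in 4T1 with decitabine and 57 in 4T1 control, summed over the group. With the strand setting of the counting not given in the sources used here, reads in that overlap cannot be assigned to either gene.

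Cdh2 encodes N-cadherin, the adhesion protein of neural and mesenchymal cells, on chromosome 18 (16588877 to 16809246, minus strand). Its level was 115, 119.9 and 109 CPM in B16F10 with decitabine and 111, 104 and 101 CPM in B16F10 control, and these groups overlapped. The log2 fold change there was 0.12 (SE 0.057, adjusted p = 0.0908). In 4T1 with decitabine Cdh2 had 1, 3 and 4 counts, against 0 in each 4T1 control library. It was therefore at or near the counting floor in all 6 libraries of that line and was not tested there by the filtered fit. Without the filter on low counts the 4T1 change passed the threshold (adjusted p = 0.0195), on these 8 counts against 0. Between the lines Cdh2 was 2288-fold higher in B16F10 than in 4T1 with decitabine (95% counting interval 1161 to 5299, on 19928 against 8 counts). In control it was at least 5572-fold higher in B16F10, set against 3 counts over the group of 4T1 libraries.

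Vim encodes vimentin, the intermediate filament protein of mesenchymal cells, on chromosome 2 (13573927 to 13582826, plus strand). Its level was 1667, 1769.8 and 1836 CPM in B16F10 with decitabine and 1808, 1958 and 1929 CPM in B16F10 control. It was 1032, 1043 and 899.5 CPM in 4T1 with decitabine and 2762, 2665 and 2658 CPM in 4T1 control. The 4T1 groups stood well apart, with every decitabine library below every control, and the B16F10 groups overlapped. In 4T1 Vim fell 2.62-fold (log2 fold change -1.39, SE 0.0605, adjusted p = 9.36e-09), and 2.06% of genes tested fell by as much or more. In B16F10 the change was -0.11 (SE 0.0525, adjusted p = 0.115). The order of the lines differed with treatment. With decitabine Vim was 1.77-fold higher in B16F10 than in 4T1 (log2 0.83, SE 0.0592, adjusted p = 2.65e-10), and in control it was 1.42-fold lower in B16F10 (log2 -0.51, SE 0.0589, adjusted p = 2.82e-07).

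Zeb1 and Zeb2 encode the paired zinc finger and homeodomain repressors of the transition, Zeb1 on chromosome 18 (5591860 to 5775467, plus strand) and Zeb2 on chromosome 2 (44983632 to 45117395, minus strand). Zeb1 was at 0.621, 0.891 and 1.12 CPM in B16F10 with decitabine and 0.301, 0.640 and 0.361 CPM in B16F10 control. It was at 5.08, 5.09 and 5.12 CPM in 4T1 with decitabine and 0.764, 1.32 and 0.763 CPM in 4T1 control. The 4T1 decitabine libraries lay above all 9 others, and the B16F10 groups overlapped through control replicate 2. The 4T1 decitabine values rest on 210, 275 and 330 counts, so that their small spread is no measure of precision. Zeb1 rose 5.53-fold in 4T1 (log2 fold change 2.47, SE 0.187, adjusted p = 5.09e-07), and 11.7% of genes tested there rose by as much or more. In B16F10 the log2 fold change was 1.02 (SE 0.403), which missed the threshold at an adjusted p of 0.0501. Without B16F10 control replicate 2 it was 1.40 (adjusted p = 0.0181), without decitabine replicate 1 it was 1.22 (adjusted p = 0.0388), and over the alternatives run the adjusted p ranged from 0.0146 to 0.221. The opposite-strand gene Gm10125 overlaps Zeb1, and had 303.86 counts in 4T1 with decitabine and 147.94 in 4T1 control (sums of 3 libraries). Zeb1 itself had 815 and 152. In B16F10 Gm10125 had 177.11 counts with decitabine and 261.57 in control, above Zeb1 at 151 and 75. No gene overlaps Zeb1 exons over more than 198 bases. The part of Gm10125 in the Zeb1 result was not tested.

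Zeb2 was at 184, 195 and 184 CPM in B16F10 with decitabine and 208, 198 and 179 CPM in B16F10 control. It was at 15.8, 17.1 and 14.4 CPM in 4T1 with decitabine and 48.9, 53.7 and 54.2 CPM in 4T1 control. Every 4T1 decitabine library lay below every other library, and the B16F10 groups overlapped. Zeb2 fell 3.21-fold in 4T1 (log2 fold change -1.68, SE 0.071, adjusted p = 5.99e-09), and 1.04% of genes tested, 162 of 15523, fell by as much or more. In B16F10 the change was -0.05 (SE 0.0612, adjusted p = 0.548), with a 95% interval of -0.17 to 0.07. Zeb2 was 11.9-fold higher in B16F10 than in 4T1 with decitabine and 3.74-fold higher in control (adjusted p = 2.98e-18 and 8.47e-15). The antisense gene Zeb2os, which overlaps Zeb2 exons over 653 bases, had 31.91 counts in 4T1 with decitabine and 82.27 in 4T1 control, far fewer than Zeb2.

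Set against each other per exon length, the Zeb pair changed its balance in 4T1. Zeb1 made up 38.7 ± 2.09% of the summed Zeb1 and Zeb2 level in 4T1 with decitabine and 3.38 ± 1.02% in 4T1 control (SD, n = 3 each). The libraries ran from 36.7 to 40.8% with decitabine and from 2.66 to 4.55% in control, so the groups did not overlap. The difference was 35.3 percentage points, and the exact permutation test gave a two-sided p of 0.1, the smallest that 3 against 3 libraries allow. In B16F10 the share was 0.898 ± 0.259% with decitabine and 0.431 ± 0.175% in control (SD, n = 3 each). The size rests on the exon lengths used, 10266 bases for Zeb1 and 19942 for Zeb2, and with no division by length the 4T1 difference was 22.7 points. At the 12 comparisons of shares made for the Zeb, Snail and cadherin pairs no exact p could go below 0.1, so no adjusted value could pass.

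**Figure D2:**
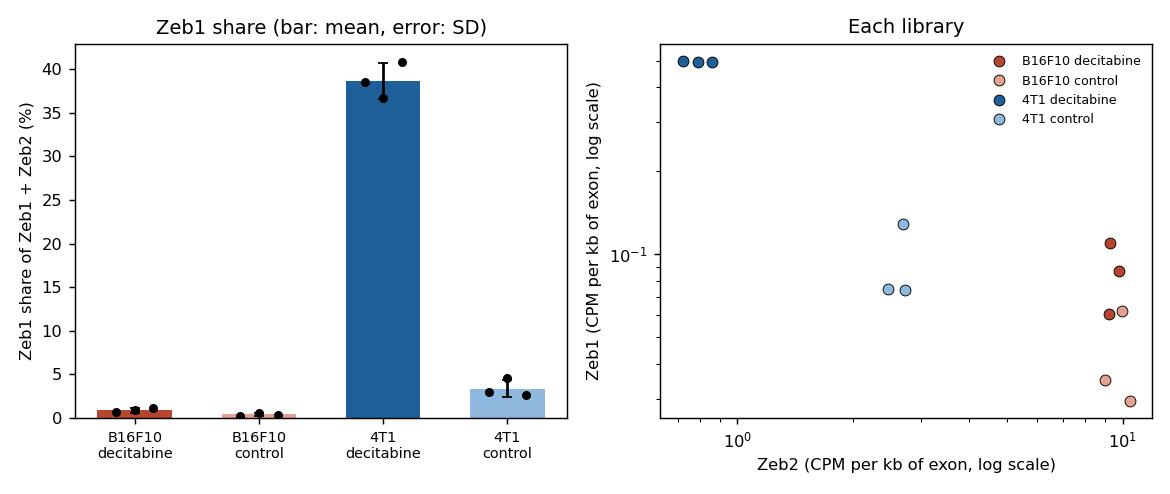
Left, the share of Zeb1 in the summed Zeb1 and Zeb2 level per exon length (%), with bars at group means, error bars of 1 SD and points for the 3 libraries of each group. Right, the Zeb1 and Zeb2 levels of each library (CPM per kb of exon, both axes log). The 3 libraries of 4T1 with decitabine stand apart at 36.7 to 40.8%, high in Zeb1 and low in Zeb2, and no other library exceeds 4.55%.

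Snai1 encodes the Snail repressor, which binds E-boxes of Cdh1, on chromosome 2 (167538195 to 167542814, plus strand). It had 7, 0 and 3 counts in B16F10 with decitabine and 3, 1 and 0 counts in B16F10 control, too few to test, and the ratio of the sums was 2.54 (95% counting interval 0.732 to 11.1). In 4T1 it was at 16.5, 17.005 and 18.1 CPM with decitabine and 10.2, 10.0 and 10.5 CPM in control. The 4T1 groups did not overlap. Snai1 rose 1.74-fold there (log2 fold change 0.80, SE 0.066, adjusted p = 1.01e-06), and 23.8% of genes tested rose by as much or more. Between the lines it was 301-fold lower in B16F10 with decitabine and 452-fold lower in B16F10 control, with 95% counting intervals of 163 to 628 and 176 to 1661.

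Snai2 encodes the related repressor Slug, a factor of neural crest and melanocytes, on chromosome 16 (14705852 to 14709385, plus strand). It was at 7.04, 7.42 and 7.55 CPM in B16F10 with decitabine and 6.00, 6.04 and 5.82 CPM in B16F10 control. All decitabine libraries lay above all controls, which holds for 50.5% of genes tested in that line when either direction is counted. The log2 fold change of 0.31 (SE 0.115) passed the threshold in B16F10 at an adjusted p of 0.0409. The call did not hold in 5 of the 6 fits that left out 1 library (adjusted p 0.0785 to 0.129), that without decitabine replicate 1 being the exception. In 4T1 Snai2 had 9, 15 and 16 counts with decitabine and 5, 3 and 3 counts in control, without overlap. It was not tested there by the filtered fit, and without the filter it passed the threshold (log2 fold change 1.80, adjusted p = 0.00263). Snai2 was 29.1-fold higher in B16F10 than in 4T1 with decitabine and 83.3-fold higher in control (adjusted p = 1.63e-14 and 5.61e-15).

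Twist1 encodes a basic helix-loop-helix factor that pairs with E proteins, on chromosome 12 (33957671 to 33959829, plus strand). In B16F10 it had 1, 0 and 0 counts with decitabine and 0 in each control library. In 4T1 it was at 16.1, 17.1 and 16.4 CPM with decitabine and 23.7, 21.4 and 22.0 CPM in control, with every decitabine library below every control. Twist1 fell 1.31-fold in 4T1 (log2 fold change -0.39, SE 0.0645, adjusted p = 0.000239), and 25.3% of genes tested fell by as much or more. In control cells it was at least 1316-fold lower in B16F10 than in 4T1, set against 3 counts over the B16F10 group, and with decitabine the ratio of 1 against 2644 counts was 2879-fold lower (95% counting interval 516 to 113760).

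**Figure D3:**
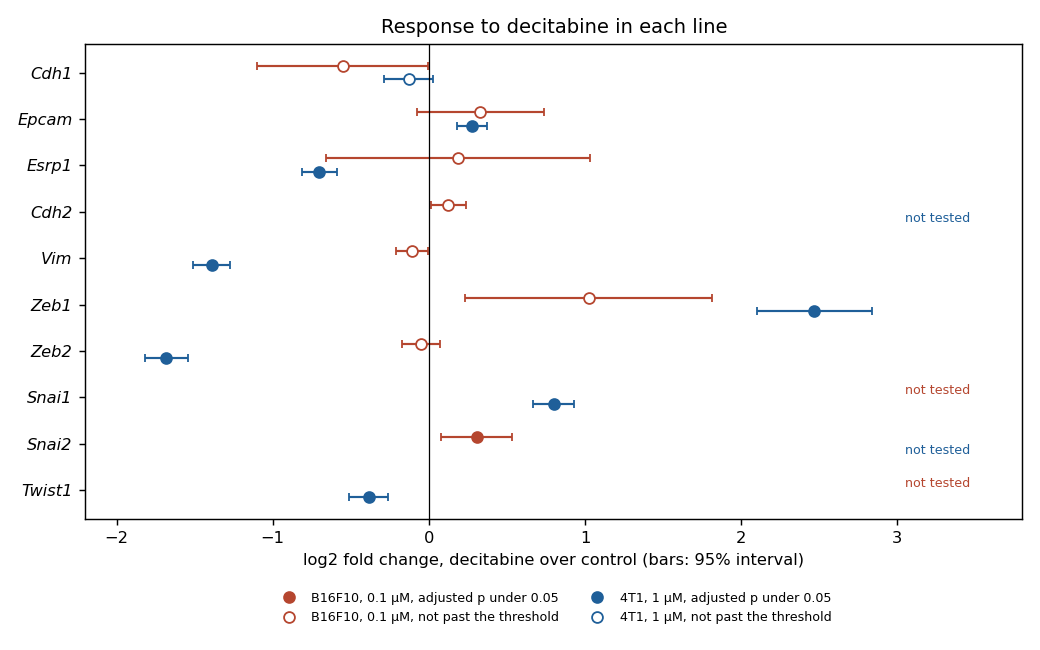
Log2 fold change of each gene, decitabine over control, in B16F10 at 0.1 µM and in 4T1 at 1 µM, with 95% intervals. Filled points have an adjusted p under 0.05, and genes with too few counts are marked as not tested. In 4T1, Zeb1 (2.47), Snai1 (0.80) and Epcam (0.27) lie right of 0 and Zeb2 (-1.68), Vim (-1.39), Esrp1 (-0.70) and Twist1 (-0.39) lie left of it, while in B16F10 only Snai2 (0.31) is filled.

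Across all 10 genes in 4T1, 9 had groups that did not overlap, Cdh1 being the exception, against 78.7% of genes tested in that line. The 9 include Cdh2 and Snai2, which were not tested there, and the count is no result about these genes in particular. The median log2 fold change of the members tested was -0.26 in 4T1 and 0.16 in B16F10, beside 0.03 and 0.003 over all genes tested. The difference between the responses, B16F10 minus 4T1, was tested in 1 fit of all 12 libraries. It passed the threshold for 6 of 10 members, 3 in each direction, where 49.8% of 17127 genes did (28.9% higher and 20.9% lower), a share near that of the members. On the log2 scale the difference was 1.68 for Zeb2 (SE 0.0963, adjusted p = 1.72e-10), 1.33 for Vim (SE 0.0834, adjusted p = 5.21e-10) and -1.40 for Zeb1 (SE 0.417, adjusted p = 0.00949). It was 0.94 for Esrp1 (SE 0.312, adjusted p = 0.0213). The Zeb1 difference missed the threshold without B16F10 control replicate 2 (-1.03, adjusted p = 0.0523). The Esrp1 difference missed it without B16F10 decitabine replicate 2 (0.49, adjusted p = 0.158) and without B16F10 control replicate 2 or 3 (adjusted p = 0.0626 and 0.07). The differences of Cdh2 (adjusted p = 0.00379) and Snai2 (-1.52, adjusted p = 0.00207) rest on the few counts of 4T1 given above. For Epcam the difference was 0.10, with a 95% interval of -0.19 to 0.39, and for Cdh1 -0.39, with an interval of -0.87 to 0.09, so that neither was shown to differ or to act alike. Without B16F10 decitabine replicate 3 the Cdh1 difference was -0.68 (adjusted p = 0.00729). For Snai1 (0.51, adjusted p = 0.651) and Twist1 (2.27, adjusted p = 0.279) the few counts in B16F10 made a difference undetectable at this depth.

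Between the lines all 10 members passed the test in both conditions. With decitabine 4 were higher and 6 lower in B16F10 than in 4T1, where 83.7% of all genes passed (40.1% higher and 43.6% lower). In control 3 were higher and 7 lower, where 77.9% passed (37.9% higher and 40.0% lower). Vim was the member whose direction differed between the conditions. The B16F10 and 4T1 libraries overlapped for none of the 10 members in either condition, against 85.7% of genes without overlap with decitabine and 78.7% in control. The line contrast with decitabine moved by -0.105 in the median of all genes with RLE size factors and by 0.311 with scaling by library size only, and the sign of no member's contrast changed under them. For Zeb1 the contrast was log2 -2.54 (SE 0.275, adjusted p = 9.51e-08) with decitabine and -1.14 (SE 0.313, adjusted p = 0.00283) in control.

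Per exon length, Vim had the highest level of the 10 in every group, at 370.5 ± 17.96 CPM per kb in B16F10 with decitabine, 400.2 ± 16.7 in B16F10 control, 209 ± 16.8 in 4T1 with decitabine and 568 ± 12.3 in 4T1 control (SD, n = 3 each). In both B16F10 groups it was followed by Cdh2, Zeb2, Snai2 and Epcam, in that order, with Twist1 last. In both 4T1 groups it was followed by Epcam and Cdh1, with Cdh2 last. Within 4T1, Snai1 averaged 10.6 ± 0.499 CPM per kb with decitabine, close to Twist1 at 10.2 ± 0.292, and the spreads of these neighbours overlapped. In 4T1 control Snai1 averaged 6.32 ± 0.159 CPM per kb and Twist1 13.7 ± 0.749. Zeb1 averaged 0.496 ± 0.00202 CPM per kb with decitabine and 0.0923 ± 0.0312 in control, and stayed below Zeb2, at 0.790 ± 0.0674 with decitabine and 2.62 ± 0.145 in control.

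**Figure D4:**
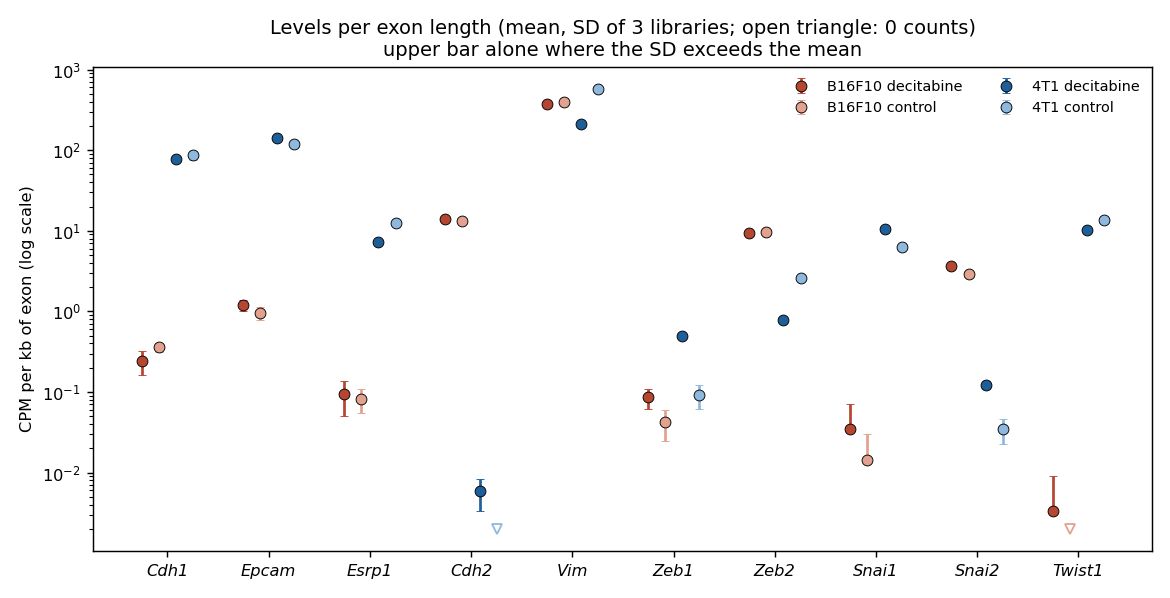
Mean level of each gene per exon length (CPM per kb, log scale) in the 4 groups, with error bars of 1 SD over 3 libraries. Where the SD exceeds the mean the upper bar alone is drawn, and open triangles mark groups with 0 counts. Vim is highest in every group, and the spans between the lines for Cdh1, Epcam and Esrp1 exceed those between decitabine and control.

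Genes that work with these members were read from lists chosen with earlier results known, and are described by counts. Those counts stand beside calls for 39.2% of all genes higher and 36.1% lower in 4T1, and for 21.4% higher and 19.8% lower in B16F10, and nothing particular to a list was tested. Genes that reached the expression filter's minimum (10 counts at the median library size) in every decitabine library but not in every control library entered the test through the decitabine group, and numbered 2004 of 15523 tested in 4T1 and 1014 of 14344 in B16F10, so that a count of genes tested does not speak for a whole list. In 4T1 the regulators of splicing in the epithelial or mesenchymal state fell, 7 of 7 tested, with a median log2 fold change of -0.50, beside 36.1% of all genes lower and a median of 0.03. They included Ptbp1, a repressor of exon inclusion (427 CPM with decitabine and 759.6 CPM in control), and Rbm47, an RNA-binding protein of epithelial cells (22.3 CPM with decitabine and 43.4 CPM in control). Of 13 epithelial transcription factors tested 9 rose and 1 fell (median 0.93), beside 39.2% of all genes higher, and with scaling by library size only 7 rose and 2 fell. Trp63, 1 of the 13, reached the filter's minimum throughout the decitabine libraries alone. Ovol1, a repressor of Zeb genes, was at 16.035 CPM with decitabine and 3.86 CPM in control, and Klf4, an epidermal and gut factor, at 29.8 CPM with decitabine and 10.1 CPM in control. Gata3, the luminal mammary factor, fell to 42.1 CPM with decitabine, against 90.5 CPM in control. Of 11 other EMT factors 3 rose and 6 fell (median -0.50), beside 39.2% of all genes higher and 36.1% lower. Prrx1, 1 of the 11, reached the filter's minimum throughout the decitabine libraries alone. Prrx1 (log2 fold change 3.56) and Snai3 (1.44) rose on few counts, and Sox4 (-1.41) and Tead1 (-0.87), partner of Yap1, fell.

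Of 7 genes of E proteins, with which Twist1 pairs, and of Id proteins, 3 were higher and 2 lower in 4T1 (median -0.01), beside 39.2% of all genes higher and 36.1% lower. The count is near those shares and is no result about the list. Id1 and Id3, inhibitors that bind E proteins and keep them off DNA, rose to 119 and 115 CPM with decitabine, against 18.6 and 42.3 CPM in control. Tcf4, an E protein, fell to 48.8 CPM with decitabine, against 131 CPM in control. In B16F10, 2 of 6 rose (median of the 6 0.002), beside 21.4% of all genes higher. They were also Id1, to 3.98 CPM with decitabine, against 1.65 CPM in control, and Id3, to 27.0 CPM with decitabine, against 10.6 CPM in control.

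Of 34 epithelial junction and surface genes in 4T1, 17 rose and 9 fell (median 0.12), and with scaling by library size only 11 rose and 18 fell (median -0.18). Over all 15523 genes that scaling gave 4248 higher and 8242 lower calls, against 6087 and 5601 with TMM. Patj (255 CPM with decitabine and 54.6 CPM in control) and Crb3 (8.28 CPM with decitabine and 2.75 CPM in control), both of the apical polarity complex, rose, and Cgn, a tight junction scaffold, and Krt7, a simple keratin, fell (log2 fold change -0.86 and -0.44). In B16F10 only 13 of the 34 genes had counts enough to test, and 9 rose and 1 fell (median 1.47). Of these 13, 5 reached the filter's minimum in every decitabine library but not in every control, among them Jup, so that the count does not speak for the whole list. F11r, a tight junction adhesion protein, was at 8.83 CPM with decitabine and 3.20 CPM in control, and Jup, plakoglobin, at 1.90 CPM with decitabine and 0.157 CPM in control. Grhl2, an epithelial factor upstream of Cdh1, was at 2.33 CPM with decitabine and 0.147 CPM in control in B16F10. Of 8 epithelial factors tested there 3 rose (median 0.47), beside 21.4% of all genes higher. Grhl2 and Grhl3, 2 of the 8, reached the filter's minimum throughout the decitabine libraries alone, and this count does not speak for the list. Grhl3 had 49 counts with decitabine and 0 in control, at least 16.6-fold higher against 3 counts over the group. Cdh1 itself was at 1.12 ± 0.371 CPM in those decitabine libraries and 1.64 ± 0.211 CPM in control (SD, n = 3 each).

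Of 24 mesenchymal and matrix genes tested in B16F10, 16 rose and 1 fell (median 0.79), beside 21.4% of all genes higher and 19.8% lower. Of 24 tested in 4T1, 15 rose and 8 fell (median 0.74), beside 39.2% higher and 36.1% lower. Of those tested, 4 in B16F10 and 6 in 4T1 reached the filter's minimum throughout the decitabine libraries alone. In B16F10 Sparc, a matrix glycoprotein, rose to 1138 CPM with decitabine, against 668 CPM in control, and Des, the muscle filament desmin, to 39.7 CPM with decitabine, against 17.2 CPM in control. Ncam1, a neural adhesion protein, fell to 81.2 CPM with decitabine, against 174 CPM in control. In 4T1 the fibrillar collagens Col1a1 (10.1 CPM with decitabine and 0.629 CPM in control) and Col1a2 (5.54 CPM with decitabine and 0.224 CPM in control) rose. S100a4, a calcium-binding protein of motile cells, fell to 157 CPM with decitabine, against 398 CPM in control, and Axl, a receptor kinase, to 470.4 CPM with decitabine, against 965 CPM in control. These collagens are also fibroblast markers. The summed level of the 9 fibroblast markers ran from 21.3 to 24.5 CPM in 4T1 with decitabine and from 10.96 to 11.5 CPM in 4T1 control, where Col3a1 and Lum were at 0, and from 57.6 to 63.1 CPM in B16F10 with decitabine and from 46.9 to 52.2 CPM in B16F10 control. Their part in the mesenchymal count was not tested.

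Among the other cadherins 8 of 21 could be tested in 4T1, and 6 rose and 1 fell (median 1.71), beside 39.2% of all genes higher. Most of the list had too few counts to test, and 2 of the 8, Cdh11 and Cdh15, reached the filter's minimum throughout the decitabine libraries alone, so that the count does not speak for the 21 genes. Cdh5, the endothelial cadherin, was at 8.55 CPM with decitabine and 0.307 CPM in control, and Cdh3, P-cadherin of basal epithelium, at 8.85 CPM with decitabine and 1.19 CPM in control. Cdh24 fell to 5.12 CPM with decitabine, against 9.53 CPM in control. The 6 endothelial markers, of which Cdh5 is 1, summed to 23.1 to 46.7 CPM with decitabine and 11.4 to 16.8 CPM in control, and none was at 0 in either group. Their part in the Cdh5 result was not tested. In B16F10, 1 of 5 rose, Cdh24 (2.19 CPM with decitabine and 1.31 CPM in control), and 1 fell, Cdh19 (99.7 CPM with decitabine and 122 CPM in control). Of 9 catenins and anchors that tie cadherins to actin, 7 fell and 2 rose in 4T1 (median -0.42), beside 36.1% of all genes lower. Ctnnal1 and Pkp4 fell (log2 fold change -0.76 and -0.77), and Jup and Ctnna1 rose (0.49 and 0.11). In B16F10, 3 of 9 rose and 4 fell (median -0.005), beside 21.4% of all genes higher and 19.8% lower. Jup, 1 of these 9, reached the filter's minimum throughout the decitabine libraries alone. Ctnnb1, β-catenin, was at 694 CPM with decitabine and 859 CPM in control in B16F10.

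Of 21 genes of TGF-β and BMP signalling, a main inducer of the transition, 7 rose and 12 fell in 4T1 (median -0.24), beside 39.2% of all genes higher and 36.1% lower. With scaling by library size only, 4 rose and 14 fell. The receptor Tgfbr2 fell to 82.4 CPM with decitabine, against 154 CPM in control, and Bmpr1a to 88.0 CPM with decitabine, against 133 CPM in control. The signal inhibitors Skil (357 CPM with decitabine and 155 CPM in control) and Smad6 (7.32 CPM with decitabine and 2.68 CPM in control) rose. In B16F10, 8 of 20 rose and 3 fell (median 0.08), beside 21.4% of all genes higher and 19.8% lower. Of the 20, 2 (Bmp4 and Tgfb2) reached the filter's minimum throughout the decitabine libraries alone. This count does not speak for the list. Smad6 fell in B16F10 to 3.65 CPM with decitabine, against 5.32 CPM in control. The ligand Bmp4 had 150 counts with decitabine and 1 in control, and the coreceptor Eng was at 225 CPM with decitabine and 156 CPM in control.

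Corepressors that Snail and Zeb factors recruit fell in 7 and rose in 1 of 13 tested in 4T1 (median -0.12), beside 36.1% of all genes lower, and fell in 4 and rose in 2 of 13 in B16F10 (median -0.02), beside 19.8%. With scaling by library size only, 12 fell and 0 rose in 4T1. Suz12, of the Polycomb complex, fell in both lines (log2 fold change -0.55 in 4T1 and -0.52 in B16F10), and Ajuba, a LIM-domain corepressor of Snail, rose in both (0.30 and 0.57). Of 11 genes listed for turnover of Snail and Twist proteins 9 fell and 1 rose in 4T1 (median -0.42), and 5 fell and 1 rose in B16F10 (median -0.17), beside 36.1% of all genes lower in 4T1 and 19.8% in B16F10. Fbxl14, a ubiquitin ligase subunit for Snail, fell to 37.5 CPM with decitabine in 4T1, against 61.7 CPM in 4T1 control. The Snail kinase gene Pak1 had 68 counts in B16F10 with decitabine and 0 in control, at least 23-fold higher against 3 counts over the group. Pak1 reached the filter's minimum throughout the decitabine libraries alone, so that the B16F10 count that rose does not speak for the list. The list also counts Pkd1, a polycystin gene with no known part in this turnover, which fell in both lines (-0.88 in 4T1 and -0.46 in B16F10). In B16F10, 2 of 5 splicing regulators rose, Mbnl2 and Rbfox2 (0.20 and 0.19), and 2 of 5 other EMT factors, Sox4 and Yap1 (0.24 and 0.16). Over all genes tested in B16F10, 21.4% were higher.

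**Figure D5:**
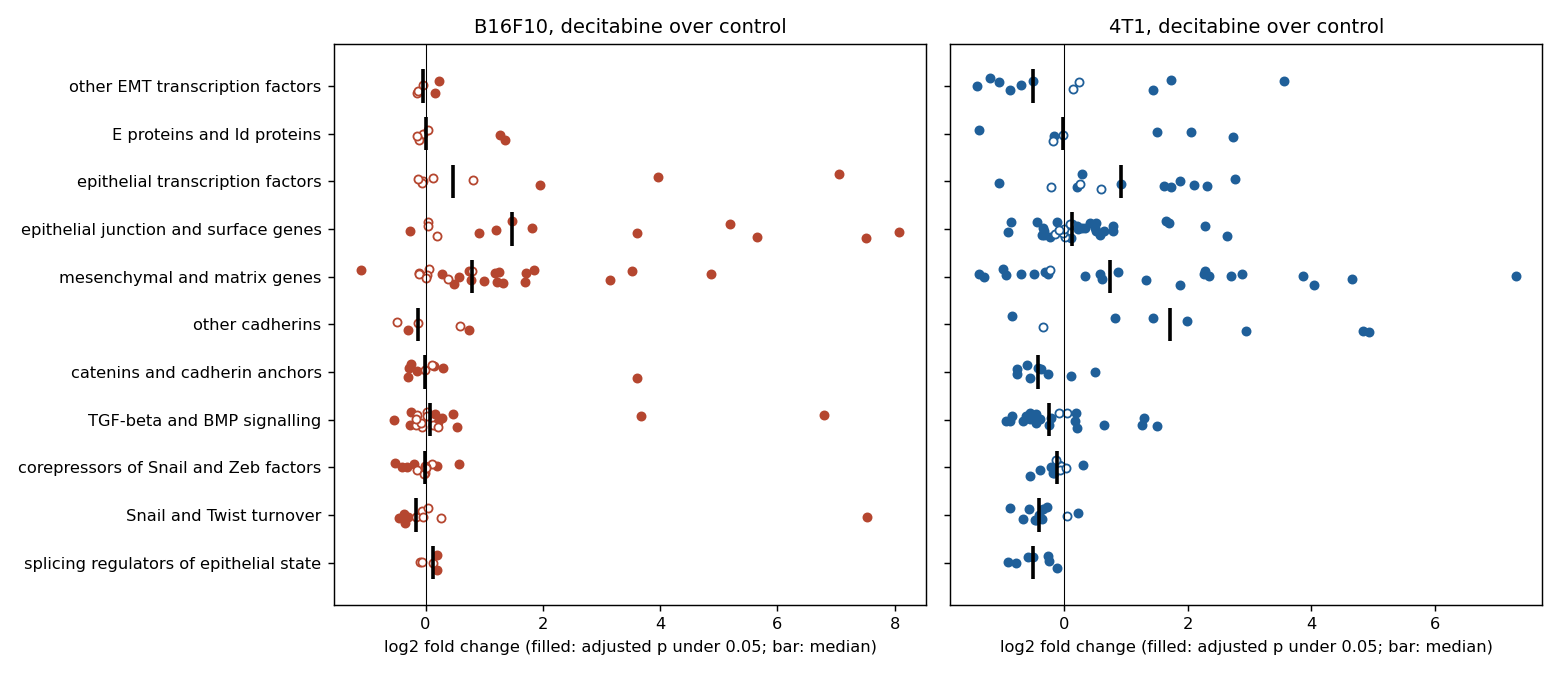
Log2 fold change, decitabine over control, of every tested gene of the 11 lists in B16F10 (left) and 4T1 (right). Filled points have an adjusted p under 0.05, black bars are list medians, and points of genes at 0 counts in 1 group are fitted values and no bounds. In 4T1 every splicing regulator lies left of 0 and most epithelial factors lie right of it. In B16F10 the median of the 13 tested junction genes, of 34 listed, is 1.47. Of these 13, 5 reached the filter's minimum in every decitabine library but not in every control, so that this median does not speak for the list.

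The genes whose levels over the 12 libraries were most like those of a member were found among 17127 genes by the root mean square difference of log2 CPM, each centred on its own mean. For Vim they were B3glct and Zfp469 (0.116 and 0.117), and for Zeb1 Tmem140 and Pnpla1 (0.365 and 0.371). For Cdh1 they were Fam110c and Prom2, for Epcam Sh2d1b1 and Mmp13, for Esrp1 Itga2 and Fer1l6, and for Cdh2 Klhl13 and Brs3, at 0.208 to 0.393. For Snai1 they were Itgb6 and Sema7a, for Snai2 Atp6v0e2 and Tg, and for Twist1 Dhrs9 and Snrpn, at 0.173 to 0.316. The libraries of the 2 lines differ in most genes, so that this likeness is mainly one of levels between the lines.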

How the data were processed

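Estimated counts per gene, 1 table for each line, were deposited by the authors, with no scaling between libraries. Per the submitters' processing notes RSEM and edgeR were used with the build mm10. Not given in the sources used here are their versions, the aligner, the annotation and the strand setting. Per the labels' protocols the library kit offers molecular indices, and their use in counting is not given. Groups and replicate numbers came from the labels. Of 46517 genes 46005 matched GENCODE M21 by identifier, and 1 repeated identifier was resolved. Per library 9.5 to 15.5% of entries were fractional, and the estimated counts were rounded.

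Responses were tested within a line, on 6 libraries, and contrasts between lines and the difference of responses on all 12, with edgeR 4.0.16 in R 4.3.3 (default expression filter, TMM scaling, robust quasi-likelihood fit and test, Benjamini-Hochberg adjustment over all tested genes, threshold 0.05). Printed CPM use the TMM factors of all 12 libraries, and fold changes come from the fits. Exon lengths are the union of GENCODE exons. A fold against a group at 0 is a bound against 3 counts over the group, and intervals of counts are exact 95% intervals. DESeq2 1.42.0, limma-voom 3.58.1, other scalings, no filter, a replicate block and leaving out each library were tried. The edgeR tests were tested on simulated data first. No 2 libraries of a group agreed within sampling noise (smallest chi-square per degree of freedom 5.67). The members and gene lists were chosen with earlier results of these data known. Named from each list are, in each line, up to 2 rising and 2 falling genes with the smallest adjusted p, and each member's 2 nearest genes with official symbols, those of Zeb2 not being reported here. Promoter windows are from RefSeq (GRCm38.p6), and Python 3.11.15 with matplotlib 3.10.9 drew the figures.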

Additional observations from a re-analysis of the deposited data

Results flagged for a closer look

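For 6 of the 10 genes the response to decitabine differed between the lines by the test of the difference itself, B16F10 response minus 4T1 response on the log2 scale, as it did for 49.8% of all 17127 genes, so that the count is no result about these genes in particular. For Zeb2 the difference was 1.68, with a fold change of -0.05 in B16F10 and -1.68 in 4T1. For Vim it was 1.33, with -0.11 in B16F10 and -1.39 in 4T1. For Zeb1 it was -1.40, with 1.02 in B16F10 and 2.47 in 4T1, of which the B16F10 value did not pass the test (adjusted p = 0.0501). Without B16F10 control replicate 2 the Zeb1 difference was -1.03 and missed the threshold (adjusted p = 0.0523). For Esrp1 it was 0.94, with 0.19 in B16F10 and -0.70 in 4T1. For Snai2 it was -1.52, on 40 counts in 4T1 with decitabine and 11 in 4T1 control. For Cdh2 it was -4.42, a fitted value that rests on 8 counts in 4T1 with decitabine and 0 in 4T1 control, and that is no bound. Dose differs with the line, so that a difference between doses and a difference between lines cannot be told apart.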

How the results depend on the processing

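In B16F10 the count of members that rose was 1 and became 2 with RLE size factors and with limma-voom, and 0 with library size only, with DESeq2 and with the replicate block. It ran from 0 to 2 when each library was left out, and the count that fell from 0 to 1, through Cdh1 without decitabine replicate 3 (-0.86, adjusted p = 0.0359). The changes in the count that rose came from Snai2, called or not (adjusted p 0.0685 with library size only, 0.0647 with DESeq2, 0.0904 without the filter and 0.0758 in 1 fit of all 12 libraries), and Zeb1 (0.0489 with RLE, 0.0416 with limma-voom, 0.0436 without the filter and 0.0146 in 1 fit of 12). In 4T1 the count that rose was 3 and became 5 without the filter and in 1 fit of all 12 libraries, which test Cdh2 and Snai2 as well. With library size only, Epcam in 4T1 reversed to -0.024 and Cdh1 passed the threshold there (-0.43, adjusted p = 0.000689). The Esrp1 difference between lines missed the threshold with limma-voom (adjusted p = 0.0683). The Zeb1 share difference in 4T1 was 22.74 points with no division by exon length, an alternative chosen after seeing the data, and 34.19 to 36.27 points when each library was left out. Same-numbered libraries did not deviate together (correlations -0.111 to 0.0321), and for differently numbered ones the correlations were -0.0583 to 0.108. With 3 libraries a group, these values cannot show whether samples were paired by number. The replicate block, as a pairing by number, left Snai2 in B16F10 at an adjusted p of 0.0613 and changed no other member's call. Of 648 values of members under the alternatives 622 kept their side of the threshold, and none of these that was called changed sign. Values not called could change sign and are counted among the 622. When each library was left out, Esrp1 in B16F10 ran from -0.265 to 0.495. The difference between lines ran from -0.0196 to 0.265 for Epcam and from -0.532 to 1.715 for Snai1. Depth limits Snai1 and Twist1 in B16F10 and Cdh2 and Snai2 in 4T1, all at or near a few counts a library.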

Other observations

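Some markers of other cell types passed the test in each line. Of 8 immune markers 4 could be tested in 4T1 and 4 rose, beside 39.2% of all genes higher. Of these, 3 (Cd79a, Itgam and Ptprc) reached the filter's minimum throughout the decitabine libraries alone, so that this count does not speak for the list. The highest was Csf1r at 13.1 CPM with decitabine and 1.00 CPM in control. Their summed level ran from 16.005 to 16.7 CPM in 4T1 with decitabine and from 0.881 to 1.35 CPM in 4T1 control, with Adgre1 and Nkg7 at 0 in both groups. In B16F10 it ran from 1.14 to 2.26 CPM with decitabine and from 0.527 to 1.06 CPM in control. Of the endothelial markers 2 of 4 tested rose in 4T1, Cdh5 and Tek. Of the fibroblast markers 3 of 4 rose and 1, Pdgfra, fell, beside 39.2% of all genes higher and 36.1% lower. Tek and Vwf, and the fibroblast markers Col1a2 and Fap, reached the filter's minimum throughout the decitabine libraries alone. In B16F10, 3 of 5 fibroblast markers and 1 of 2 immune markers tested rose, beside 21.4% of all genes higher. There Col3a1 and Cd79a reached the minimum throughout the decitabine libraries alone, and these counts do not speak for the lists. The 1 endothelial marker tested in B16F10 did not pass the test.

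Markers of each line's own lineage moved in both directions. In B16F10, 2 of 9 melanocyte markers rose and 4 fell, beside 21.4% of all genes higher and 19.8% lower. The count that fell was 3 with RLE size factors and 6 with scaling by library size only. The summed level of the 9 ran from 9737 to 9921 CPM with decitabine and from 12246 to 12572 CPM in control. Tyr, tyrosinase, rose to 7.02 CPM with decitabine, against 3.23 CPM in control, and Pmel, a melanosome fibril protein, fell to 2152 CPM with decitabine, against 2981 CPM in control. In 4T1, 3 of 8 mammary markers tested rose and 4 fell, beside 39.2% of all genes higher and 36.1% lower. Trp63, 1 of the 8, reached the filter's minimum throughout the decitabine libraries alone. The summed level of the mammary markers ran from 1979 to 2131 CPM with decitabine and from 2600 to 2659 CPM in control. Esr1, the oestrogen receptor, fell to 4.16 CPM with decitabine, against 12.4 CPM in 4T1 control, and Foxa1, a luminal factor, rose to 11.6 CPM with decitabine, against 3.27 CPM in control. In 4T1 the 3 melanocyte markers tested, of 9, also rose, beside 39.2% of all genes higher. Among them Tyr was at 0.651 CPM with decitabine and 0.108 CPM in control. Pmel and Tyr, 2 of the 3, reached the filter's minimum throughout the decitabine libraries alone, and this count does not speak for the list. In B16F10, 2 of 5 mammary markers tested rose and 1 fell, beside 21.4% of all genes higher and 19.8% lower. Pgr and Prlr reached the minimum throughout the decitabine libraries alone there.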
